A study of Homo sapiens with 12 samples.

Results

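The genes described here encode the protein components of the cytosolic ribosome in AsPC-1, an established human pancreatic cancer cell line. They were taken from the deposited gene counts by symbol, as RPL or RPS followed by digits and at most one of the endings A, L, X, L1, AL or AX, together with RPLP0, RPLP1, RPLP2 and RPSA, with pseudogenes left out. The rule found 85 of the 57820 gene IDs: 46 genes of the large subunit, 31 of the small subunit and 8 paralogs, which are second copies of a ribosomal protein gene (RPL3L, RPL7L1, RPL10L, RPL22L1, RPL26L1, RPL36AL, RPL39L and RPS27L). Of these, 81 passed the filter on low counts and were tested among 16999 genes: 76 of the 77 subunit genes and 5 of the 8 paralogs. The paralogs RPL3L, RPL10L and RPL39L did not pass it.

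Stranded poly(A) RNA was sequenced from 12 libraries in 4 groups of 3 replicates, named A, B and C. Before that, the cells had been given siRNA: a scramble sequence (siControl) or one that targets ARNT (siARNT), the constant DNA-binding partner of the hypoxia-inducible factors and also of the aryl hydrocarbon receptor. Each was kept for the last 24 h at 1% O2 (hypoxia) or at 21% O2 (normoxia), with harvest 48 h after transfection. The 4 groups, siControl and siARNT in normoxia and siControl and siARNT in hypoxia, all hold transfected cells, and none was left without siRNA. The labels name wells of 1 line, not separate donors, so p-values measure the spread between wells. In RNA from whole wells, fewer cells that express a gene and less RNA per cell cannot be told apart.

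A ribosome has a large subunit, which joins amino acids, and a small subunit, which reads the mRNA, and each protein is needed in a fixed number of copies per ribosome. Most of the mRNAs that encode them start with a C followed by a run of pyrimidines, the 5′ terminal oligopyrimidine (TOP) tract, through which mTOR signalling sets how strongly they are translated. Hypoxia is known to lower mTOR activity and the building of new ribosomes, steps that the RNA levels measured here show only in part.

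The start of the transcript was read from RefSeq (GRCh38.p14) for 6 subunit genes called lower with siARNT in both oxygen states and for 3 paralogs whose level or splicing was called, because it shows which of them carry a tract. Each line gives 25 bases before the start and the first 15 bases of the transcript, and capitals mark a C followed by at least 5 pyrimidines that begins within 10 bases of the start. The lines run 5′ to 3′ on the strand of the gene.
RPS27A: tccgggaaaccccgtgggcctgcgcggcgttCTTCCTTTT
RPS3A: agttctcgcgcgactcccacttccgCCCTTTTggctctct
RPL24: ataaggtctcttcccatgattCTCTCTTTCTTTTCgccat
RPS23: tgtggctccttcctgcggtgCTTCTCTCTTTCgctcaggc
RPS4X: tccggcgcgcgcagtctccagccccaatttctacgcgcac
RPL17: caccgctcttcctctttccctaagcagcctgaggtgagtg
RPL22L1: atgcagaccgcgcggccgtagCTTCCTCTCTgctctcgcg
RPL7L1: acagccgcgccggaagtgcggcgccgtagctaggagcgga
RPL26L1: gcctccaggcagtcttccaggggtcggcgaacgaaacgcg

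On GRCh38.p14 these windows lie at chr2:55232653-55232692 (plus strand) for RPS27A, chr4:151099603-151099642 (plus) for RPS3A, chr3:101686704-101686743 (minus) for RPL24 and chr5:82278340-82278379 (minus) for RPS23. Those of RPS4X, RPL17 and RPL22L1 lie at chrX:72277234-72277273, chr18:49492451-49492490 and chr3:170870181-170870220, all on the minus strand. RPL7L1 and RPL26L1 are on the plus strand, at chr6:42879591-42879630 and chr5:172958704-172958743. A tract of this kind was found in 33 of 38 matched genes of the large subunit (86.8%), in 21 of 24 of the small subunit (87.5%) and in 2 of 6 paralogs (33.3%). It was present at the start of 6519 of 27305 symbols in the table (23.9%) and of 11 of 67 matched genes of the mitochondrial ribosome (16.4%). The motif was searched on the gene's own strand, on the start that RefSeq lists, and a start listed a few bases away from the one in use can hide a tract.

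The 12 libraries held 38.53 to 84.34 M gene counts, and the ribosomal protein genes took 3.566 to 4.526% of them. ARNT stood at 60.7 to 72.2 CPM (counts per 1e6 gene counts, TMM-scaled) in the 6 siControl libraries and at 12.8 to 15.99 in the 6 siARNT libraries. Epithelial markers summed to 3632 to 8107 CPM per library, while the leukocyte list summed to 0.552 to 1.76 CPM (CD3E at 0 in each library), the endothelial list to 0.299 to 0.929 and the acinar list to at most 0.0414. The fibroblast list summed to 336 to 573 CPM and was almost entirely LUM, with COL1A1 and COL1A2 too low to be tested. LUM rose by 0.44 on the log2 scale in hypoxia with siControl and fell by 0.49 with siARNT in hypoxia (edgeR, Benjamini-Hochberg adjusted p = 0.00546 and 0.00258), and 5 of the 7 epithelial markers rose with siARNT in normoxia, with or without the GC correction described next, KRT8 from 1312 ± 136 to 2427 ± 894 CPM (SD, n = 3). Of all genes 9.42% were called higher with siARNT in normoxia, and GC correction called 29.6% in either direction. KRT7, another of the 5, was low, at 1.36 ± 0.31 CPM with siControl and 2.82 ± 1.05 with siARNT in normoxia (SD, n = 3). With hypoxia in siControl 2 of the 7 rose, MUC1 by 1.35 and CDH1 by 0.60 (all genes 10.4% higher). With siARNT in hypoxia MUC1 fell by 1.25 on the log2 scale (all genes 14.7% lower). CD14, of the leukocyte list, rose with siARNT in normoxia (adjusted p = 0.0221). The part of these markers in the results below was not tested. Libraries differed in how their counts tracked the GC content of genes: across all genes the slope ran from -0.209 log2 units per 10 percentage points of GC in normoxia siControl A to 0.435 in normoxia siARNT B, with 0.241 in hypoxia siARNT C and 0.126 in hypoxia siControl B. For this reason a fit that removes a smooth GC trend from every library (GC correction) was run beside the uncorrected one, and its counts are given where they differ.

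Levels between genes were compared as CPM per kilobase of annotated exon, averaged over the 12 libraries. The subunit genes spanned a wide range although their proteins are used in fixed numbers. RPL30, in the large subunit, was highest at 2287 CPM per kb, followed by RPS24 at 2229 and RPS27 at 1917, both in the small subunit. The median of the 76 tested subunit genes was 547. The lowest tested were RPL36 at 86.5, RPL17 at 48.5 and RPS28 at 20.4.

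**Figure D1:**
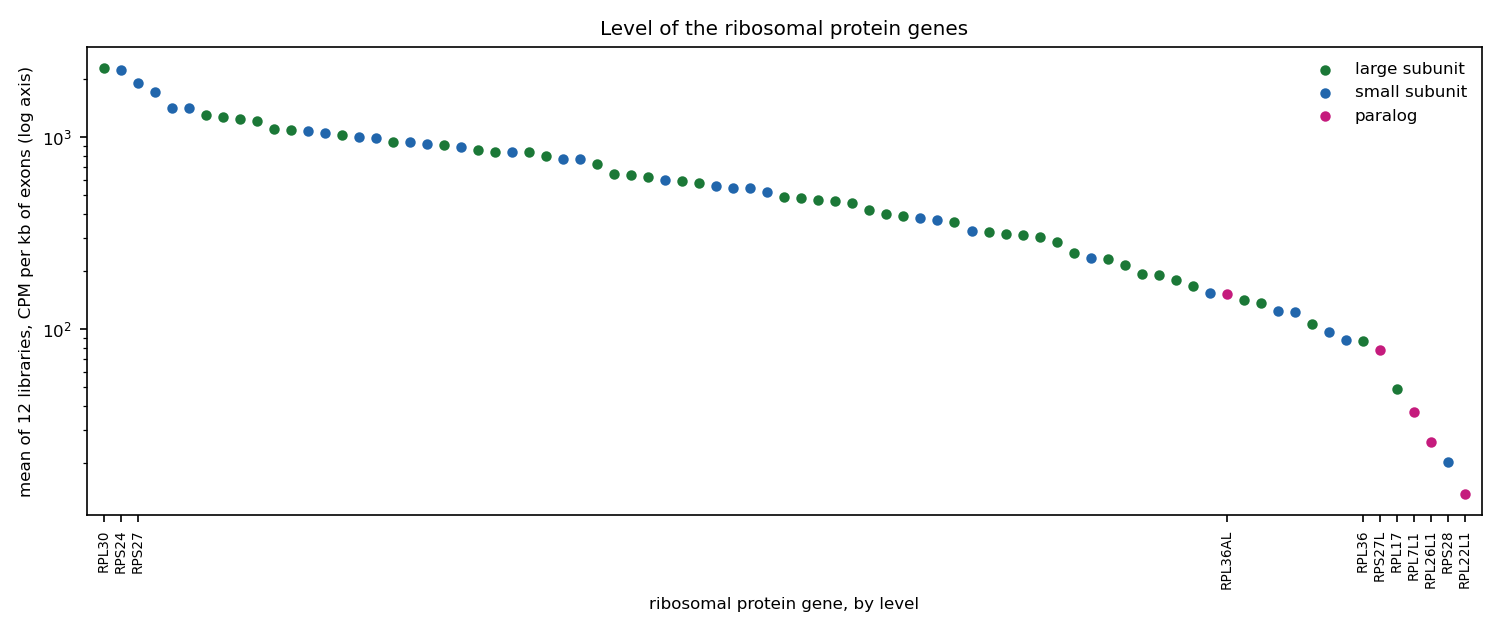
Mean level of each of the 81 tested genes over 12 libraries in CPM per kb of exon (log axis), in order of level, with large subunit, small subunit and paralogs in separate colours and the 3 highest and 3 lowest subunit genes and the 5 paralogs named. RPL30, RPS24 and RPS27 lead, and RPL17 and RPS28 lie among the paralogs.

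A low gene count may not mean a weakly expressed gene, and RPL17 had more reads over splice junctions than gene counts. The deposited splicing files count junction reads separately from the gene files, and 78 members had such an event, RPL36 and RPS28 not among them. At the best covered event the junction reads came to a median of 42.3% of the gene count, but in some members they exceeded it. RPL17, of the exit tunnel region of the large subunit, had 23451 gene counts over the 12 libraries and 117221 junction reads, and its annotated span in GENCODE 29 overlaps the readthrough gene RPL17-C18orf32 on the same strand. RPL39 had 86230 gene counts against 359035 junction reads, and RPL36A, whose span is shared with RPL36A-HNRNPH2, had 115040 against 184530. RPL41 and RPL26 were of this kind too, with 143534 junction reads to 116490 gene counts and 195390 to 178732. A junction read is also a read of the transcript. If both kinds of file count reads in the same way, the gene counts of these members hold only some of their reads. Their levels would then be understated. How the splicing files count reads is not stated. The cause was not tested. Reads that matched more than 1 place made up 14.45 to 15.14% of a library and are in no gene count, and 1589 gene IDs carry the name of a ribosomal protein pseudogene, whose counts in all came to 1.444 to 2.263% of those of the members.

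The paralogs were minor forms with one exception. RPL36AL, on another chromosome than RPL36A, made up 39.2% of the pair in normoxia siControl on the per-kb scale. RPL36A, though, is one of the genes with more junction reads than gene counts. RPL22L1 made up 7.52% of its pair with RPL22, RPL26L1 6.38% of that with RPL26, RPS27L 3.99% of that with RPS27 and RPL7L1 2.75% of that with RPL7. RPL3L, RPL10L and RPL39L, known as forms of striated muscle or testis, held at most 2, 2 and 6 counts in any library.

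Within the 76 tested subunit genes the spread between libraries followed GC content. The highest library was normoxia siARNT B for 38 of the 39 genes with a GC content of 50% or more and for 7 of the 37 below 50%. In 15 genes the highest library was at least 2 times the lowest, and in all 15 the highest was normoxia siARNT B. RPS28 is the extreme case: it stood at 13.2, 19.5 and 14.7 CPM in normoxia siControl and at 23.2, 71.0 and 23.8 in normoxia siARNT, then, in hypoxia, at 20.8, 38.3 and 18.01 with siControl and at 16.4, 25.1 and 41.0 with siARNT. One library in each of the last 3 groups stood far above the rest, and these are the 3 libraries with the steepest positive GC slopes. RPL36, at 26.1, 38.2 and 24.95 CPM in normoxia siControl and 43.0, 115 and 48.3 in normoxia siARNT, had the same form. The stalk proteins RPLP1 and RPLP2, which recruit the GTPases of translation, varied 3.17-fold and 3.22-fold between libraries. RPL6, chosen after its values were seen, had the smallest ratio of highest to lowest library among the 76, at 1.09.

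The first comparison asked what 24 h of hypoxia did to these genes in control cells. RPS27, a small-subunit protein with a zinc finger, rose and was the one subunit gene called. Of 76 subunit genes, 1 was called higher and 0 lower at an adjusted p under 0.05, while 25.3% of all 16999 genes were called in this comparison, 10.4% higher and 14.9% lower. RPS27 stood at 663, 670 and 660 CPM in normoxia and at 750, 735 and 728 in hypoxia. The groups did not overlap, and the log2 fold change was 0.15 (SE 0.05, edgeR, Benjamini-Hochberg adjusted p = 0.0272). The call is fragile: it was made in 15 of 24 alternative fits and was lost without any 1 of 5 of the 6 libraries compared, with an adjusted p of 0.123 without hypoxia siControl A. The median log2 fold change was 0.13 over the 76 subunit genes against 0.02 over all genes, and 65 of the 76 values were above 0. With GC correction 8 subunit genes were called higher and 0 lower (all genes, 38.4% called), among them RPL5 at 0.16, RPS3A at 0.14 and RPL13A at 0.33.

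**Figure D2:**
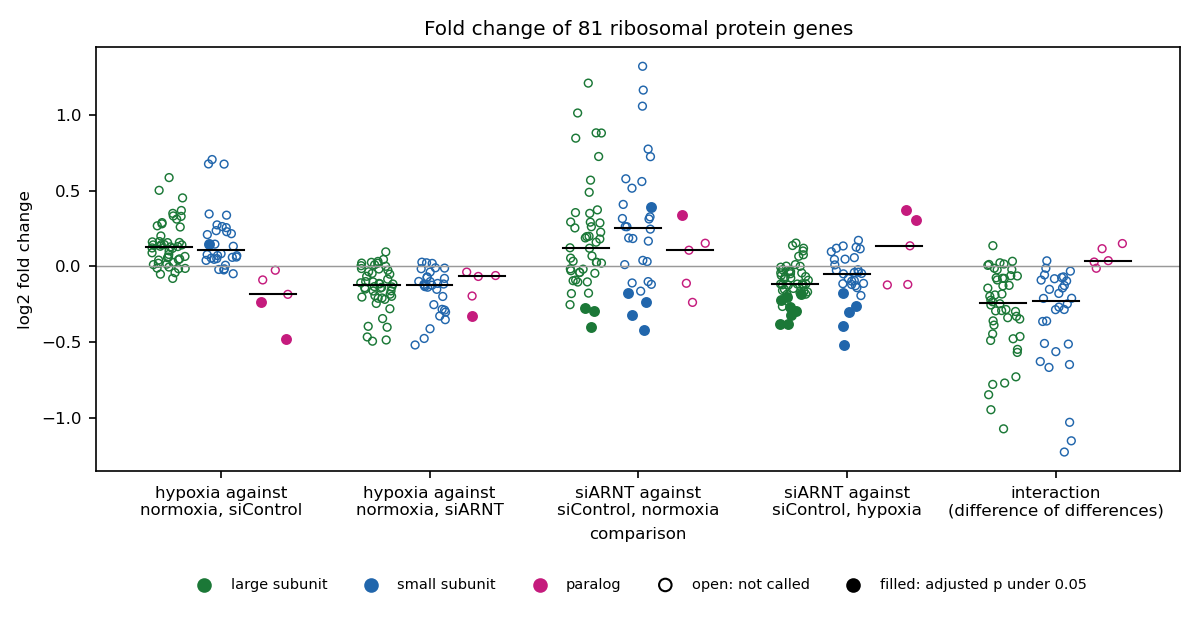
Log2 fold change of the 81 tested genes in the 4 comparisons and the interaction, by class. Each point is 1 gene, filled where the adjusted p is under 0.05, and black lines are medians. Calls with siARNT in the subunit genes lie below 0 except for RPS21 in normoxia, while called paralogs lie below 0 with hypoxia and above 0 with siARNT.

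Of the 5 tested paralogs 2 were called lower in this comparison. RPL26L1 stood at 19.99, 20.3 and 18.6 CPM in normoxia siControl and at 13.7, 14.3 and 14.3 in hypoxia siControl. These groups lie well apart, and RPL26L1 fell by 0.48 on the log2 scale (SE 0.08, edgeR, Benjamini-Hochberg adjusted p = 0.000825), a call that held in all 24 alternatives. RPL26 itself had a log2 fold change of 0.04 (edgeR, Benjamini-Hochberg adjusted p = 0.642), though it is one of the genes with more junction reads than gene counts. The difference between the 2 genes was not tested. RPL7L1, whose product is a nucleolar relative of RPL7, stood at 149, 142 and 144 CPM in normoxia and 126, 118 and 126 in hypoxia, a log2 fold change of -0.23 (SE 0.05, adjusted p = 0.00541). It was called in 23 of 24 alternatives. RPL22L1, RPL36AL and RPS27L were not called, with log2 fold changes of -0.18, -0.03 and -0.09.

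The same change of oxygen in siARNT cells called no subunit gene in edgeR (1 at an unadjusted p under 0.05, and 1 member in all by DESeq2), against 4.09% of all genes, 2.21% higher and 1.89% lower. The median was -0.12 over the 76 subunit genes and -0.04 over all genes. Without normoxia siARNT B the median was -0.01, while with GC correction and all libraries kept it was -0.145, with 0 of the 76 values above 0. That fit had 6 subunit genes called lower and 0 higher (all genes, 18.7% called), the largest being RPL36A at -0.26, and the paralog RPL7L1 at -0.29 (edgeR, Benjamini-Hochberg adjusted p = 0.00318, against 0.0542 without the correction). RPL26L1 was again lower, at 17.0, 18.2 and 17.1 CPM in hypoxia siARNT against 21.0, 23.7 and 20.8 in normoxia siARNT, with a log2 fold change of -0.33 (SE 0.08, edgeR, Benjamini-Hochberg adjusted p = 0.0389). This call was made in only 10 of 24 alternatives and was lost without any 1 of the 6 libraries compared. In the interaction, which asks whether the hypoxia change differs between siARNT and siControl, no member was called in edgeR or DESeq2 (10 of the 76 subunit genes and 0 of the 5 paralogs at an unadjusted p under 0.05), against 4.69% of all genes, 2.49% higher and 2.19% lower. GC correction gave 9 subunit genes with a lower hypoxia change in siARNT and 0 with a higher one (all genes, 13.3% called), among them RPL36A at -0.39, RPL10A at -0.32 and RPS3A at -0.26.

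Knockdown of ARNT in normoxia called 20.2% of all genes, 9.42% higher and 10.8% lower. Among the 76 subunit genes 7 fell (RPS27A, RPL7, RPS3A, RPL24, RPL17, RPS4X and RPS23) and 1 rose (RPS21). The share that fell is near that of all genes, and the share that rose is below it. The balance of directions depended on the fit: with the paralogs, edgeR called 2 members higher and 7 lower, DESeq2 11 and 6, and GC correction 15 and 2. RPS27A, which encodes a small-subunit protein fused to ubiquitin, stood at 1261, 1238 and 1247 CPM in normoxia siControl and at 971, 889 and 939 in normoxia siARNT. The 2 groups lie far apart relative to their spread, and the log2 fold change was -0.42 (SE 0.06, edgeR, Benjamini-Hochberg adjusted p = 0.000786). RPL7, a large-subunit protein, stood at 1508, 1431 and 1552 CPM in siControl against 1218, 1038 and 1154 in siARNT. It fell by 0.40 on the log2 scale (SE 0.09, adjusted p = 0.0103). RPS3A, near the mRNA exit of the small subunit, stood at 917, 877 and 894 CPM against 753, 677 and 725. It fell by 0.32 on the log2 scale (SE 0.07, adjusted p = 0.0103). Neither RPL7 nor RPS3A had a siARNT library as high as any siControl library.

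The other 4 falls were smaller. RPL24, at the bridge between the subunits, stood at 450, 460 and 443 CPM in siControl and at 380, 369 and 355 in siARNT (log2 fold change -0.29, SE 0.05, edgeR, Benjamini-Hochberg adjusted p = 0.00174). RPS4X, an X-linked small-subunit gene, stood at 1716, 1713 and 1761 CPM against 1497, 1466 and 1452 (-0.23, SE 0.06, adjusted p = 0.0133). RPL17 had -0.28 (adjusted p = 0.0155), and RPS23, a protein of the decoding centre, -0.17 (adjusted p = 0.0485). In each of the 7 genes all siARNT libraries lay below all siControl libraries. The genes were picked for being called lower, so this separation adds no support of its own. Its share over all genes was not counted. RPS21 stood at 203, 220 and 197 CPM in siControl against 251, 324 and 237 in siARNT (0.39, SE 0.12, adjusted p = 0.0463). Its call was made in 13 of 23 alternatives, and without normoxia siARNT B the value was 0.23 (adjusted p = 0.172).

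**Figure D3:**
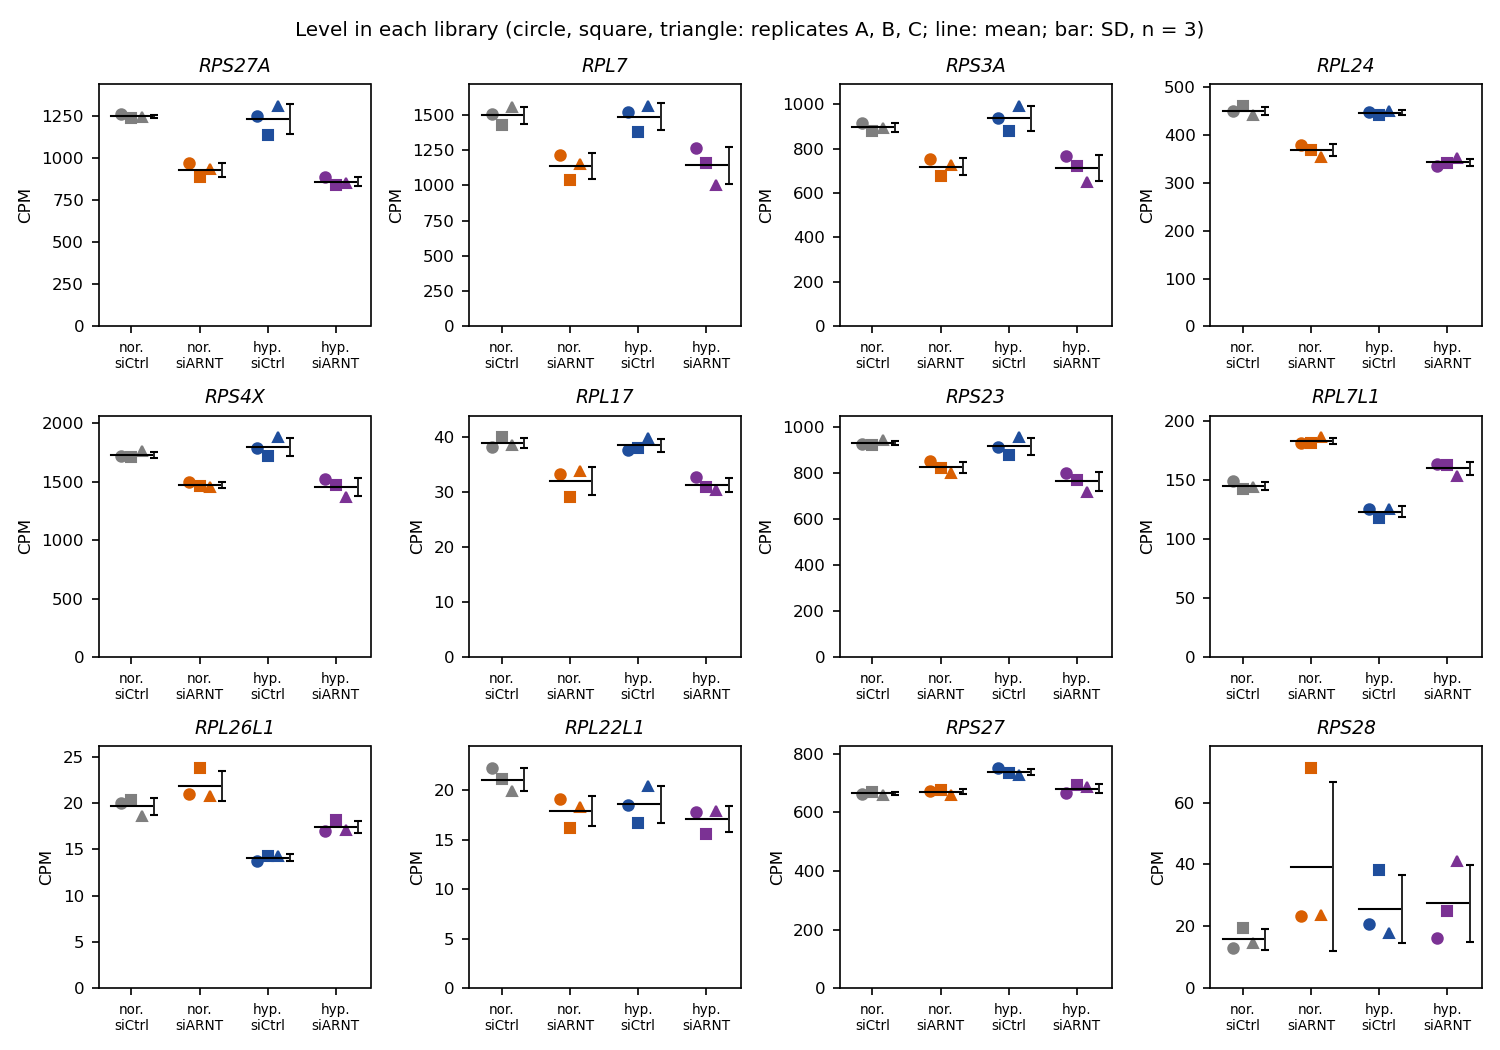
CPM in each of the 12 libraries for the 7 subunit genes called lower with siARNT in both oxygen states, 3 paralogs, RPS27 and RPS28. Symbols are replicates A, B and C, lines are means and bars are SD (n = 3). The first 7 panels step down with siARNT, RPL7L1 and RPL26L1 in hypoxia step up, and RPS28 has 1 high library in 3 of the 4 groups.

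These 7 genes share a low GC content, from 43.6% in RPL7 to 47.8% in RPL24, against a median of 50.3% for the 76 subunit genes. Over the 76 genes the log2 fold change in normoxia rose with GC content (Pearson's r = 0.82 across genes, which share the same 6 libraries), and after GC correction r was 0.47. GC correction kept RPS27A at -0.26 (adjusted p = 0.000735) and RPL7 at -0.20 (adjusted p = 0.00208). It ended the other 5 calls, with RPS3A at -0.12 (adjusted p = 0.0606), RPL24 at -0.15 (0.0758), RPS4X at -0.09 (0.156), RPL17 at -0.09 (0.262) and RPS23 at 0.03 (0.771). It also called 12 subunit genes higher and 2 lower (all genes, 29.6% called), with RPS21 at 0.41, RPS18 at 0.30 and RPSA, a small-subunit protein also known as the laminin receptor, at 0.28. The median over the 76 genes was 0.18, against 0.01 over all genes, and 0.05 without normoxia siARNT B. The number of members called, 9 with the paralog RPL7L1, also moved with single libraries: it was 5 without normoxia siControl C, 6 without normoxia siControl B, 15 without normoxia siARNT C, 18 without normoxia siARNT A and 17 without hypoxia siARNT C, which enters through the shared estimate of spread.

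In hypoxia 13 of 76 subunit genes fell with siARNT and 0 rose, and 11 of the 13 calls held with GC correction. Among all genes 29.1% were called, 14.4% higher and 14.7% lower, so the share of members that fell is near that of all genes. The count is larger than the 7 in normoxia, as is the share of all genes called lower, and no member was called in the interaction. The median was -0.09, against 0.02 over all genes. RPS27A again fell most, from 1253, 1136 and 1308 CPM in hypoxia siControl to 889, 842 and 852 in hypoxia siARNT (log2 fold change -0.52, SE 0.06, edgeR, Benjamini-Hochberg adjusted p = 6.74e-05). RPS3A stood at 938, 878 and 989 CPM against 767, 724 and 649 (-0.39, SE 0.07, adjusted p = 0.00157). RPL24 stood at 448, 441 and 451 CPM against 336, 342 and 351 (-0.38, SE 0.05, adjusted p = 0.00011). No siARNT library of these genes reached the lowest siControl library.

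RPL7 stood at 1522, 1377 and 1559 CPM in hypoxia siControl against 1264, 1156 and 1002 in hypoxia siARNT (-0.38, SE 0.09, edgeR, Benjamini-Hochberg adjusted p = 0.00711). RPS4X stood at 1787, 1724 and 1878 CPM against 1524, 1476 and 1372 (-0.30, adjusted p = 0.00153). RPL17 had -0.30 and RPS23 -0.26, so that the 7 genes called lower in normoxia were all called lower in hypoxia, where they are 53.8% of the 13. The same overlap over all genes was not counted, so it cannot be called particular to these members. The 2 comparisons use different libraries. The 6 genes called lower in hypoxia but not in normoxia were all of the large subunit but 1: RPL14 at -0.32, RPL15 at -0.27, RPL10A at -0.22, RPL31 at -0.20, RPL5 at -0.18 and RPS6 at -0.17. RPL5 forms the 5S RNP with RPL11, which can bind MDM2 and stabilise p53. RPL11 had a log2 fold change of -0.08 (adjusted p = 0.439). RPS6 is the substrate of S6 kinase that is read as a marker of mTOR activity.

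The calls in hypoxia differed in strength. RPS27A, RPS3A, RPL24, RPL7, RPL14, RPS4X, RPL17 and RPS23 were called in all 23 alternatives, GC correction included. RPL15 was called in 22, RPL10A in 17, RPL31 and RPL5 in 16 and RPS6 in 14. Total count scaling gave 8 members lower and 3 higher, against 13 and 2 with TMM scaling. With GC correction RPS6 had -0.16 (edgeR, Benjamini-Hochberg adjusted p = 0.112) and RPL31 -0.18 (0.235), while RPL29 at -0.30, RPL21 at -0.13, RPS13 at -0.13 and RPL18 at -0.13 were also called, for 15 lower and 0 higher (all genes, 42.8% called). Across the 76 genes r of the log2 fold change with GC content was 0.49, and 0.30 after correction.

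**Figure D4:**
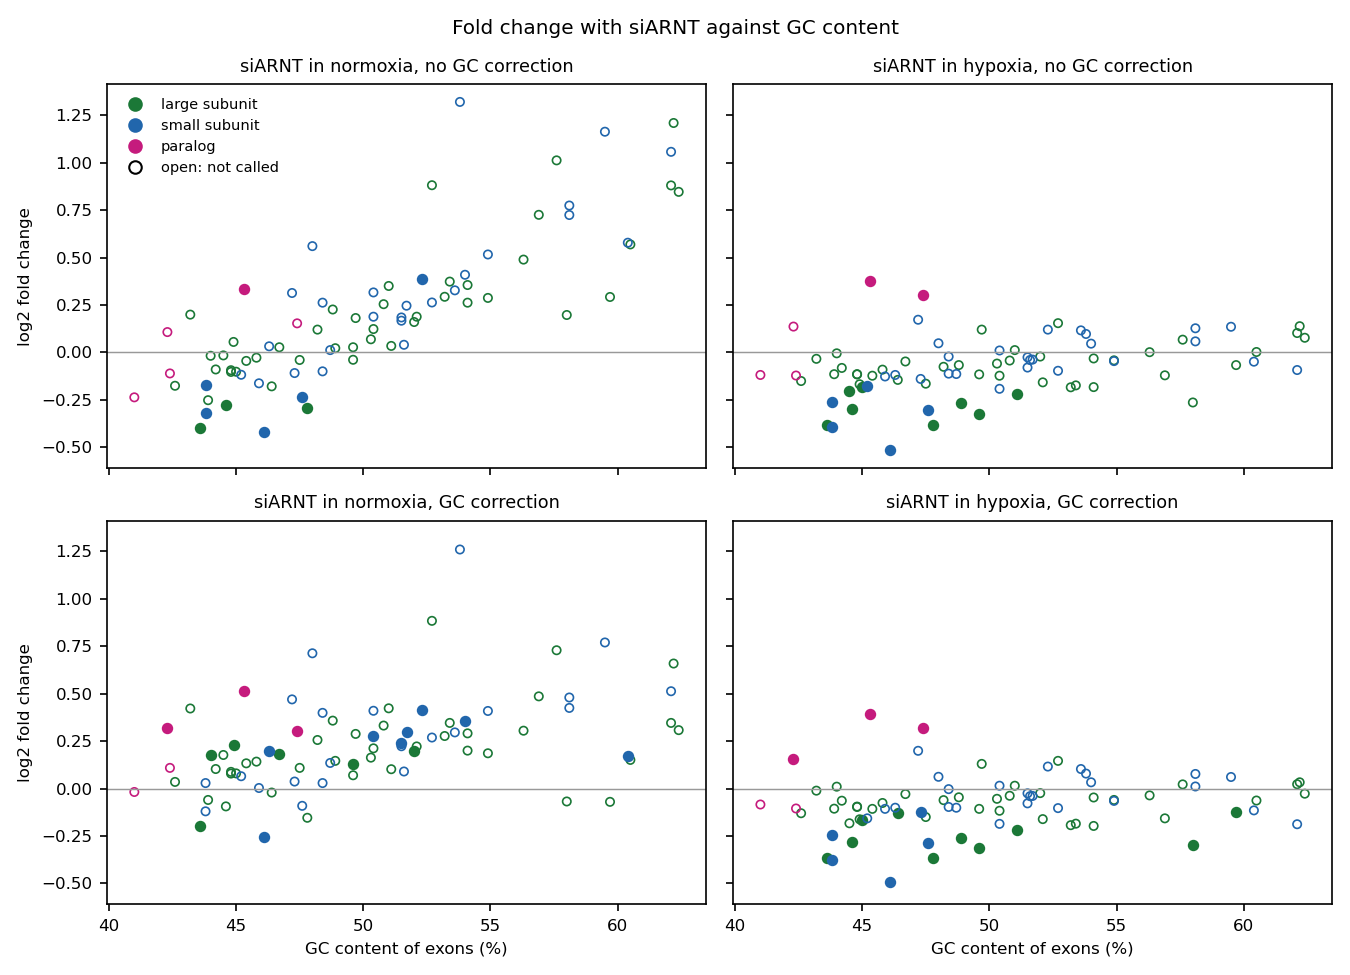
Log2 fold change with siARNT against exon GC content (%) for the 81 tested genes, in normoxia (left) and hypoxia (right), without (top) and with (bottom) GC correction, filled where called. In normoxia the uncorrected values rise with GC content, and the called falls at the left end are reduced to 2 after correction. In hypoxia the called falls are at similar values in both rows.

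Junction reads gave a second count of the same molecules in the same libraries, described here without a test. At the best covered splice site of RPS27A they ran from 413 to 442 per 1e6 gene counts in normoxia siControl and from 324 to 363 in normoxia siARNT, a log2 ratio of means of -0.36. In hypoxia they ran from 416 to 458 in siControl and from 281 to 294 in siARNT, a ratio of -0.60. For RPL7 the ratios were -0.44 in normoxia and -0.38 in hypoxia, and for RPS3A -0.35 and -0.31. For RPL14, RPL24, RPS4X and RPS23 they were -0.33, -0.29, -0.24 and -0.17 in hypoxia. Junction reads went the other way for RPL15 in hypoxia, at 0.09 against -0.27 in the gene counts. The RPL15 event held few of its reads, 8575 junction reads to 193931 gene counts (4.42%, median of members 42.3%). Junction reads gave smaller values than the gene counts for the other 4 genes called in hypoxia alone: RPL10A at -0.12, RPL31 at -0.11, RPS6 at -0.09 and RPL5 at -0.09. The scales differ, as junction reads were scaled to total gene counts and gene counts by TMM. With total count scaling the gene counts gave -0.093 for RPS6 and -0.102 for RPL5, near their junction values. For these 2 genes the smaller values therefore do not set junction reads apart from gene counts. The difference of scale applies to every gene of a library, so it also enters the values of RPL10A and RPL31. Their values with total count scaling are not given here. RPL17, whose gene count is in doubt, had -0.20 and -0.13 by its junction reads.

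Among the paralogs, RPL7L1 rose with siARNT in both oxygen states and RPL26L1 in hypoxia. RPL7L1 stood at 149, 142 and 144 CPM in normoxia siControl and 181, 181 and 186 in normoxia siARNT (log2 fold change 0.34, SE 0.05, edgeR, Benjamini-Hochberg adjusted p = 0.000998). In hypoxia it stood at 126, 118 and 126 against 163, 163 and 153 (0.37, SE 0.05, adjusted p = 0.000187). Both calls held in all 23 alternatives, and in neither oxygen state did the groups overlap. Within its pair with RPL7, the share of RPL7L1 went from 2.75% with siControl to 4.50% with siARNT in normoxia, and from 2.37 to 3.95% in hypoxia. RPL26L1 stood at 13.7, 14.3 and 14.3 CPM in hypoxia siControl and at 17.0, 18.2 and 17.1 in hypoxia siARNT (0.30, SE 0.08, adjusted p = 0.0109), and its call held in 21 of 23 alternatives. In normoxia it had 0.15 (adjusted p = 0.155), and 0.30 with GC correction (adjusted p = 0.0235). RPL22L1, RPL36AL and RPS27L were not called. RPS27L, known as a p53 target, was called with GC correction only, at 0.32 in normoxia (adjusted p = 0.000674) and 0.15 in hypoxia (adjusted p = 0.0466).

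Other members followed by name were not called in any comparison of the uncorrected fit. RPS19, the gene most often mutated in Diamond-Blackfan anaemia, stood at 134, 170 and 132 CPM in normoxia siControl against 188, 360 and 195 in normoxia siARNT (log2 fold change 0.77, edgeR, Benjamini-Hochberg adjusted p = 0.075). RPL10, at the peptidyl transferase side of the large subunit, had 0.37 in the same comparison (adjusted p = 0.145), and RPL13A, often used as a reference gene, 0.26 (adjusted p = 0.198). The stalk proteins RPLP0, RPLP1 and RPLP2 had 0.29, 0.88 and 0.88 (adjusted p = 0.177, 0.0677 and 0.0697), with normoxia siARNT B the highest library in each. RPS24 had -0.16 (adjusted p = 0.0965) and RPL30 -0.03 (adjusted p = 0.745). The ribosomal protein RPS30 is made as a ubiquitin-type fusion under another symbol, FAU, which had 0.59 with siARNT in normoxia (adjusted p = 0.0817) and 0.11 in hypoxia (adjusted p = 0.755). RACK1, the scaffold protein of the small subunit, stood at 651, 820 and 629 CPM in hypoxia siControl and at 288, 350 and 403 in hypoxia siARNT, and fell by 1.01 on the log2 scale (SE 0.17, adjusted p = 0.00119). It had -0.46 in normoxia (adjusted p = 0.0763).

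Many genes that build ribosomes fell with hypoxia in control cells. In siControl cells 28 of 45 ribosome biogenesis genes fell and 0 rose, with a median log2 fold change of -0.46, against 14.9% lower and 10.4% higher among all genes. LTV1, a factor in the maturation and export of the small subunit, fell from 49.6 ± 1.46 to 25.2 ± 3.18 CPM (SD, n = 3), and RRS1, an assembly factor of the large subunit, from 21.7 ± 0.54 to 11.4 ± 0.43. With siARNT in hypoxia 17 of the 45 rose and 2 fell (median 0.25, all genes 14.4 and 14.7%), led by HEATR1, a factor of rRNA transcription, at 0.84, and TCOF1 at 0.80, while NMD3 fell by 0.63 and RRN3 by 0.35 on the log2 scale. In the interaction 7 were higher and 0 lower (all genes 2.49 and 2.19%), with LTV1 at 0.76 and UTP20 at 0.66. In siARNT cells 6 were lower with hypoxia and 0 higher (median -0.25, all genes 1.89 and 2.21%). In normoxia siARNT had 2 higher and 7 lower (median 0.00, all genes 9.42 and 10.8%). GC correction gave 37 lower for hypoxia in siControl and 33 for hypoxia in siARNT, with 0 higher in both. For siARNT it gave 7 higher and 5 lower in normoxia, which turns the balance, and 26 and 3 in hypoxia, with 13 higher and 0 lower in the interaction. Among all genes that fit called 38.4, 18.7, 29.6, 42.8 and 13.3% in the same order of comparisons.

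Mitochondrial ribosomal proteins, which are encoded by other nuclear genes, also fell with hypoxia in siControl. Of 76 tested, 44 fell and 2 rose (median -0.32, all genes 14.9 and 10.4%), with MRPS10 at -0.71 and MRPS23 at -0.62, while MRPS6 rose by 1.09 and MRPL53 by 0.37. With siARNT in hypoxia 21 rose and 3 fell (median 0.16, all genes 14.4 and 14.7%), MRPS6 falling from 226 ± 33.9 to 96.4 ± 18.5 CPM (SD, n = 3). Hypoxia in siARNT lowered 5 and raised 0 (all genes 1.89 and 2.21%), siARNT in normoxia raised 7 and lowered 7 (9.42 and 10.8%), and 5 were higher and 1 lower in the interaction (2.49 and 2.19%). The corrected fit called 36 lower and 0 higher for hypoxia in siARNT, 19 higher and 5 lower for siARNT in normoxia, and 8 higher and 1 lower in the interaction. It gave 45 lower and 2 higher for hypoxia in siControl, and 27 higher and 5 lower for siARNT in hypoxia. The shares of all genes called in that fit are those given above.

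A list of 22 other mRNAs known to carry a TOP tract holds mostly translation factors. In siControl hypoxia 3 of 22 rose and 0 fell (all genes 10.4 and 14.9%), among them EEF1A1, the elongation factor that brings aminoacyl-tRNA, at 0.28 and EIF4B at 0.23. With siARNT in hypoxia 5 fell and 1 rose, where 14.7% of all genes fell and 14.4% rose. EEF1A1 fell by 0.44 and RACK1 by 1.01, and HNRNPA1 rose by 0.16 on the log2 scale, a call that GC correction ended (edgeR, Benjamini-Hochberg adjusted p = 0.171). EEF1A1 was also lower in the interaction (-0.36, edgeR, Benjamini-Hochberg adjusted p = 0.0181). In siARNT normoxia EIF3E fell by 0.44 and HNRNPA1 rose by 0.26 on the log2 scale, 1 of 22 each (all genes 10.8 and 9.42%), and hypoxia in siARNT called 0 of 22 in edgeR (2 at an unadjusted p under 0.05). GC correction gave 7 higher and 1 lower for hypoxia in siControl, 1 and 2 for hypoxia in siARNT, 5 and 2 for siARNT in normoxia, 0 and 7 for siARNT in hypoxia and 0 and 3 in the interaction. Among all genes it called 38.4, 18.7, 29.6, 42.8 and 13.3% in that order. Host genes of small nucleolar RNAs are TOP genes too: GAS5 fell from 345 ± 14.1 to 217 ± 16.04 CPM with siARNT in hypoxia, and EPB41L4A-AS1 from 37.3 ± 0.36 to 21.2 ± 0.86 (SD, n = 3). In that comparison 7 of 14 hosts fell and 0 rose, in siARNT normoxia 3 fell and 0 rose, and in siControl hypoxia 4 rose and 4 fell, beside the shares of all genes given above. Hypoxia in siARNT called 1 host lower, and 8 with GC correction, which gave 3 lower and 6 higher in siControl hypoxia, 8 lower and 1 higher with siARNT in hypoxia and 7 lower in the interaction (3 without it).

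Of 21 genes of mTOR signalling and translation control, 2 rose and 7 fell with hypoxia in siControl, where 10.4% of all genes rose and 14.9% fell. DDIT4, an inhibitor of mTORC1, rose by 1.45 on the log2 scale, from 38.3 ± 2.68 to 105 ± 12.9 CPM (SD, n = 3), and EEF2K by 0.36. MTOR itself fell by 0.64 and the cap-binding factor EIF4E by 0.52. With siARNT in hypoxia DDIT4 fell by 1.11 and TSC1 by 0.45, while MTOR rose by 0.63 and DEPTOR by 0.45. In that comparison 4 of 21 rose and 2 fell, where 14.4% of all genes rose and 14.7% fell. The interaction called DDIT4 lower and MTOR and DEPTOR higher (edgeR, Benjamini-Hochberg adjusted p = 0.00381, 0.0176 and 0.0495). Among all genes it called 2.49% higher and 2.19% lower. Hypoxia in siARNT called 0 of 21 in edgeR (6 at an unadjusted p under 0.05), against 4.09% of all genes. In normoxia siARNT raised EIF4EBP1 and LARP1 and lowered TSC1, against 9.42% of all genes higher and 10.8% lower. GC correction called 5 higher and 9 lower for hypoxia in siControl, 3 and 5 for hypoxia in siARNT, 6 and 4 for siARNT in normoxia, 7 and 5 for siARNT in hypoxia and 2 and 2 in the interaction. Among all genes it called 38.4, 18.7, 29.6, 42.8 and 13.3% in that order.

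Splicing of the members was read from deposited junction counts, with the share of the inclusion form given as the deposited PSI, a fraction from 0 to 1. Of the 31977 junction events and 2942 intron events tested, 607 and 101 belonged to members. The first fit, in edgeR for junctions and limma for introns, called 7 member events for hypoxia in siControl, 1 for hypoxia in siARNT, 5 for siARNT in normoxia, 2 for siARNT in hypoxia and 7 in the interaction, against 0.0281, 0.0125, 0.0156, 0.0188 and 0.0344% of all junction events and 0.136, 0.034, 0.068, 0.034 and 0.068% of all intron events. These calls came from 8 events in RPL10, RPS7 and RPL7, named after their values were seen, and in each a form was listed at 0 in all 3 libraries of a group. A skipping junction of RPL10 was listed at 0 in the 3 normoxia siControl libraries and at up to 145 reads in the others, where the 63-base exon it skips had a PSI from 0.988 to 0.993. An RPS7 acceptor was listed with 409, 256 and 273 reads in hypoxia siControl and at 0 in the other 9 libraries, and an RPL7 donor at 0 in the 3 hypoxia siARNT libraries and at up to 234 reads elsewhere. Such a pattern was present in 122 of the 708 member events tested, and whether it reflects how the event lists were made was not tested. Events with both forms present in every library were therefore fitted again, with a variance that follows the precision of each ratio. This was decided after the zeros had been seen.

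In that second fit 309 junction events of members were tested among 13386, and 1, 2, 3, 2 and 0 were called in the order used above, against 0.583, 0.329, 2.54, 2.49 and 0% of all junction events. None of the 30 intron events of members was called in limma (0, 3, 6, 4 and 3 at an unadjusted p under 0.05), against 0.257, 0.0643, 0.322, 1.16 and 0% of all intron events. The clearest call with hypoxia in siControl was in RPL22L1, in which an internal exon can begin at either of 2 acceptors 67 bases apart. The long form carries the 67 extra bases shown here in capitals, which lie at chr3:170868135-170868201 on GRCh38 (minus strand, GENCODE 29). The flanks are those of the spliced transcript. The 12 bases before the capitals end the preceding exon, and the 26 after begin the part that both forms share.
RPL22L1 extension: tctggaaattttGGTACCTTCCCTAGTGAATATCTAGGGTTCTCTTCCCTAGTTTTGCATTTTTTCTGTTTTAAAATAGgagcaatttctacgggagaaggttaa

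With the short 122-base exon the reading frame of RPL22L1 runs for 122 codons, and with the 189-base exon it ends after 64 codons, at a stop within the 26 bases after the extension. GENCODE 29 lists the transcripts with the long form as targets of nonsense-mediated decay. The share of the short form was 0.522, 0.602 and 0.531 in normoxia siControl and 0.397, 0.433 and 0.355 in hypoxia siControl, so that the groups did not overlap. Their means were 0.552 ± 0.0437 and 0.395 ± 0.0392 (SD, n = 3), from 199 to 540 junction reads per library. The log2 ratio of short to long form changed by -0.92 (SE 0.18, limma, Benjamini-Hochberg adjusted p = 0.00722), against an adjusted p of 0.848 in the first fit. The call was lost without normoxia siControl B (adjusted p = 0.0999) and was made in 10 of the 12 fits that leave out a library. In siARNT cells the share was 0.558, 0.605 and 0.597 in normoxia and 0.490, 0.543 and 0.435 in hypoxia, a change of -0.57 that was not called (adjusted p = 0.239). The interaction had an adjusted p of 0.877, which shows neither a difference nor its absence, and siARNT in hypoxia had a change of 0.55 (adjusted p = 0.106). The total level of RPL22L1 was not called with hypoxia in siControl.

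**Figure D5:**
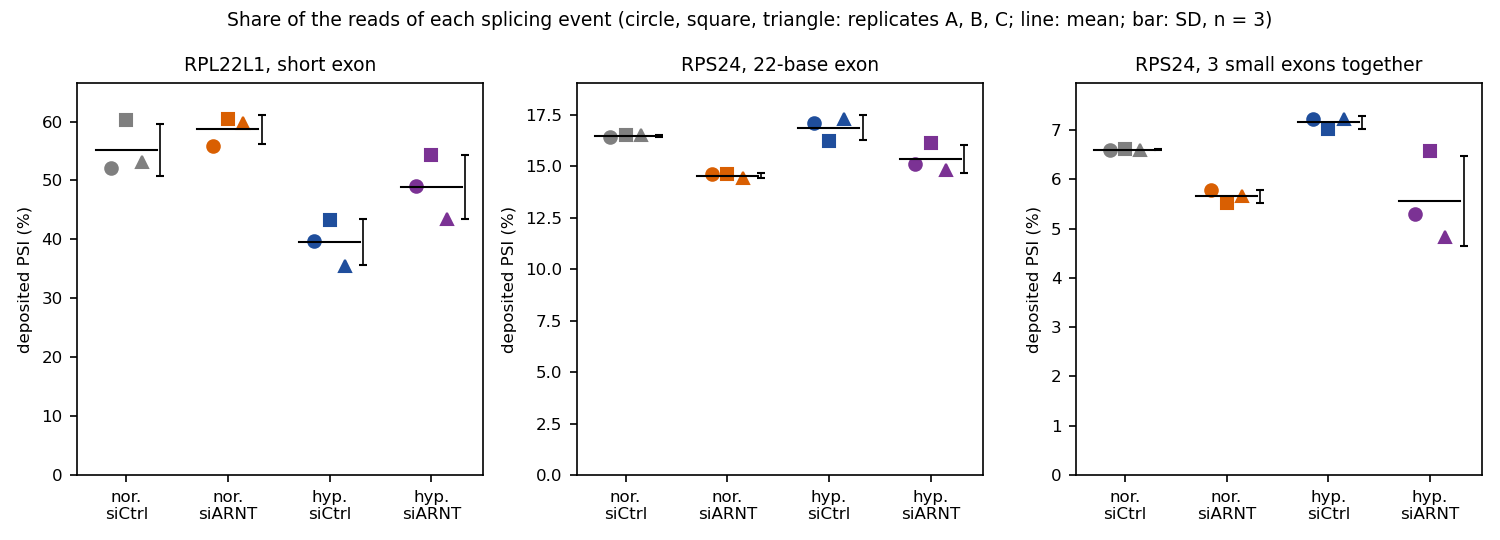
Deposited PSI, drawn as a percentage (%), in each of the 12 libraries for the short exon of RPL22L1, the 22-base exon of RPS24 and the 3 small exons of RPS24 together. Symbols are replicates A, B and C, lines are means and bars are SD (n = 3). The RPL22L1 share is lowest in hypoxia siControl, and both RPS24 shares are lower with siARNT, with the hypoxia siARNT B library nearest to its siControl group.

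RPS24 encodes a small-subunit protein whose last residues depend on small exons of 3, 18 and 22 bases. Without them GENCODE 29 gives a frame of 133 codons. With the 22-base exon alone the frame has 130 codons, with the 3-base and 22-base exons 131, and with all 3 of them 132. The 22-base exon is shown because its first 3 bases are the stop codon of the forms with 130 and 131 codons. Capitals mark the exon, at chr10:78040204-78040225 on GRCh38 (plus strand), with 4 bases of its neighbours on each side.
RPS24 22-base exon: gaagTGAGCTGGAGATTGGATCACAGccga

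The 22-base exon had a PSI of 0.164, 0.165 and 0.165 in normoxia siControl and 0.146, 0.146 and 0.144 in normoxia siARNT, a change in the log2 ratio of -0.22 (SE 0.06, limma, Benjamini-Hochberg adjusted p = 0.0362). In hypoxia it was 0.171, 0.162 and 0.173 with siControl and 0.151, 0.161 and 0.148 with siARNT (-0.17, adjusted p = 0.146). The normoxia call was made in 5 of the 12 fits that leave out a library, with an adjusted p of 0.16 without normoxia siARNT C. The form with all 3 small exons had 0.0723, 0.0701 and 0.0722 in hypoxia siControl and 0.0529, 0.0658 and 0.0482 in hypoxia siARNT. The change was -0.40 (SE 0.08, adjusted p = 0.00176) and was called in all 12 of those fits. In normoxia its values were 0.0659, 0.0661 and 0.0660 against 0.0578, 0.0552 and 0.0567 (-0.24, adjusted p = 0.103). The 2 events share the reads that skip all small exons.

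The other calls of the second fit were small in PSI. A cassette exon of RPS9 stood at 0.0905, 0.0717 and 0.100 in hypoxia siControl and 0.0429, 0.0530 and 0.0462 in hypoxia siARNT (-0.93, limma, Benjamini-Hochberg adjusted p = 0.018), called in 8 of 12 fits that leave out a library and lost without hypoxia siControl C (adjusted p = 0.113). In normoxia siARNT an exon of RPLP1 had 0.991, 0.997 and 0.986 against 0.977, 0.971 and 0.977 in siControl (adjusted p = 0.0323), and one of RPL36A 0.976, 0.966 and 0.977 against 0.983, 0.981 and 0.985 (adjusted p = 0.0249). Both were lost without normoxia siARNT B (adjusted p = 0.344 and 0.234), and they were called in 7 and 9 of the 12 fits. With hypoxia in siARNT an alternative acceptor of RPLP0 had 0.0241, 0.0238 and 0.0189 against 0.0321, 0.0315 and 0.0320 (adjusted p = 0.0473), and one of RPS3A differed by -0.001 in PSI (adjusted p = 0.035). Both were lost without normoxia siARNT C (adjusted p = 0.229 and 0.228). Of the 12 fits that leave out a library, the RPLP0 call was made in 2 and the RPS3A call in 6. The best covered exons of RPL3, RPS3 and RPL17 were included at 0.969 to 0.979, 0.981 to 0.986 and 0.998 to 0.999 in the 12 libraries and were not called in any comparison.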

How the data were processed

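RNA levels and splicing were read from 12 libraries. The authors' deposited gene files hold raw read counts per gene ID; the reads had been trimmed with Trimmomatic and aligned with STAR 2.4.2a, and GRCh38.p10 is the build named, per the submitters' processing notes. The deposited splicing files hold, per the file headers, junction read counts, the mean coverage of retained introns as a signal, and PSI, a fraction made by the authors from them. The splicing tool is not given in the sources used here, and no coordinate of those files was used. Sequences came from RefSeq (GRCh38.p14), and exon lengths, GC content, overlaps and reading frames from GENCODE 29 on GRCh38. Symbols were matched to 51996 of 57820 IDs, which held 99.35% of counts.

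Counts were tested in R 4.3.3 with edgeR 4.0.16 (quasi-likelihood, TMM scaling, all 4 groups in one fit, filterByExpr), with Benjamini-Hochberg adjustment over 16999 genes and a threshold of 0.05. CPM values use TMM-scaled library sizes, except junction reads and marker sums, which use total gene counts. The GC correction enters a smooth of log count on GC content (5 degrees of freedom) per library as an offset. Splicing events with at least 20 reads in every library and at least 3 reads of each form in 3 libraries were tested, junctions in edgeR as form by group and introns in limma on the log2 ratio. The second fit, with limma 3.58.1 and a pseudocount of 0.5, took events with at least 3 reads of each form in all libraries and a variance trended on the sampling variance of the ratio. PSI recomputed from the reads matched the deposited value within 0.005 for 99.18% of intron events and 100% of the others. Gene and event fits were tested on simulated data for siARNT in hypoxia, with changed genes drawn from all those tested. The uncorrected gene fit recovered 2.9, 37.9 and 63.6% of log2 changes of 0.3, 0.6 and 1. GC correction recovered 23.5, 63.6 and 80.3%. The first event fit recovered 9 and 63% of log2 changes of 1 and 2, and the second 11 and 56%. Small changes can thus be missed, and a gene or event not called is not shown to be unchanged. Alternatives were RLE and total count scaling, 2 other filters, DESeq2 1.42.0, fewer libraries in the fit, GC and length corrections, replicate and well blocks, pseudogene counts added to their parents, and leaving out each library. Replicate pairs of a group differed by 3.95 to 79.5 times the sampling noise in chi-square per degree of freedom, so none is a repeat deposit. The comparisons share libraries, and counting error at 38.53 to 84.34 M counts is small beside the spread between wells.

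The members and the companion lists (ribosome biogenesis, mitochondrial ribosome, TOP mRNAs, snoRNA hosts, mTOR signalling, cell type markers) were chosen with earlier results of these data known. Genes were named by a rule: paralogs and their partners, stalk proteins and RPSA, 8 members of known interest, the 3 largest rises and falls called per comparison, the 3 highest and lowest levels, and the 2 largest called changes per list. Other called members, the junction comparison and the tract search were chosen after values were seen. The deposited table of all counts repeats the per-library files and was not used. Some results are not reported here.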

Additional observations from a re-analysis of the deposited data

Results flagged for a closer look

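The change of PSI with hypoxia differed between siARNT and siControl cells in 7 events of members by the test of the interaction in the first splicing fit. Each difference of differences in PSI was small. It was -0.007 for the minor donor of RPL7, and in RPL10 -0.003 for an alternative donor, 0.003, 0.006 and 0.006 for 3 exons passed over by the same skipping junction, and 0.012 for an intron. In RPS7 it was 0.031 for an intron of 46 bases. All 7 rest on a form listed at 0 in all 3 libraries of a group, and none entered the second fit, which needs both forms in every library. The 5 RPL10 events share 1 junction, so they are 1 observation.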

How the results depend on the processing

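The numbers of members called moved with how the GC trend was treated and with other settings. GC correction gave 10 for hypoxia in siControl (3 without it), 8 for hypoxia in siARNT (1), 17 for siARNT in normoxia (9) and 9 in the interaction (0), and correction for GC and length gave 8, 17, 18 and 14. With GC correction the share of all genes called rose too, from 25.3 to 38.4%, 4.09 to 18.7%, 20.2 to 29.6% and 4.69 to 13.3% in that order. For siARNT in hypoxia (15) no setting moved the count by more than 1.5 times. A mean of at least 1 CPM gave 5 and no filter 1 for hypoxia in siControl, and no filter 0 for hypoxia in siARNT. Fits of only the libraries compared gave 10 and 0 in these comparisons, total count scaling gave 2 for hypoxia in siARNT and DESeq2 gave 17 for siARNT in normoxia, 11 higher and 6 lower against 2 and 7. Leaving out 1 library gave 2 to 4, 0 to 1, 5 to 18, 11 to 16 and 0 to 0 members in the order of hypoxia within siControl and within siARNT cells, of siARNT under normoxia and under hypoxia, and of the interaction. For the other settings the shares of all genes are not given here, so these counts show nothing particular to the members. The causes were not tested.

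Letters did not pair the libraries across all 4 groups: correlations of deviations between libraries of the same letter ran from -0.431 to 0.529. The negative values all involved hypoxia siARNT B or C. Among normoxia siControl, normoxia siARNT and hypoxia siControl all same-letter values were positive, at 0.298 to 0.529 for B and 0.072 to 0.276 for A and C. Values between A and C were positive there too, and those of B with A or C were negative. With the replicate block 28 members were called for siARNT in normoxia, 20 higher and 8 lower, and the counts of 3, 1, 16 and 0 elsewhere stayed within 1.5 times. The block with GC correction gave 19, 12, 31 and 22 in that order without siARNT under hypoxia, and the block by well gave 0 for hypoxia in siARNT. Shares of all genes called under the blocks are not given here either.

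Named values changed sign and were called with the new sign in 5 of 3744 alternatives. Changes of sign without a call are not in this count. RPS24 with hypoxia in siARNT went from 0.02 to -0.135 under correction for GC and length. With siARNT in normoxia RPL22 went from -0.018 to 0.200 under that correction, to 0.178 under GC correction and to 0.177 with the block added, and RPL30 from -0.028 to 0.140 under the block with GC correction. The median level of 546.7 CPM per kb became 960.8 per kb of coding length and ran from 531.6 to 552.4 without single libraries.

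For splicing, the first fit called 7, 1, 5, 2 and 7 events in the order above. Requiring both forms in every library gave 0 for hypoxia in either siRNA and in the interaction, limma without a variance trend 0 in all 5 comparisons, and the block under that requirement 3, 0, 12 and 0 for all but siARNT in hypoxia. The second fit gave 1, 2, 3 and 0 for the same comparisons, and with the block 5 for hypoxia in siControl and 9 for siARNT in normoxia. Without single libraries the first fit called 6 to 10, 1 to 8, 5 to 8, 2 to 9 and 7 to 15 events, and the second 0 to 1, 0 to 4, 0 to 13, 1 to 7 and 0 to 3. The requirement on both forms and the second fit were chosen after seeing the data.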
